A study of Danio rerio with 6 samples.

Results

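A set of 9 genes of the zebrafish hatching gland and pronephros was followed in the RNA of whole dnmt1 morphant and control embryos at the 10-somite stage. The members were chosen by symbol. For the hatching gland they were ctslb, he1.1, he1.2 and xbp1 (4 genes), and for the pronephros cdh17, lhx1a, pax8, hnf1bb and wt1a (5 genes). All 9 were found among the 24832 gene IDs of both expression tables. The symbol ctslb was carried by 2 IDs, so 10 IDs are described.

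There was 1 RNA library of dnmt1 morphants and 1 of control embryos. A morphant carries a morpholino, a synthetic oligomer that binds a chosen RNA and stops its translation or splicing. Here the target was dnmt1, whose product maintains DNA methylation through cell division. The labels call the control embryos normal. The sources used here do not say whether these were injected, nor do they give the fish strain, the morpholino's sequence and dose, or the number of embryos in a library. The labels also list 4 MeDIP-seq libraries (pull-down of methylated DNA), which were not used here because the genome build of their peak positions is not given.

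The hatching gland forms from the polster, the anterior end of the prechordal plate. Its cells move over the yolk and fill with granules of protease precursors, whose release softens the egg envelope at hatching. The pronephros is the first kidney of the embryo. It arises from intermediate mesoderm as a pair of tubules and ducts with a shared filter, under transcription factors that act first in the mesoderm and later in single segments. In RNA of whole embryos, a change in the number of cells of a type cannot be told apart from a change in RNA per cell.

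The morphant library held 10.05 M reads assigned to genes and the control library 9.90 M. The targeted transcript dnmt1 had 3194 reads in the morphant and 2423 in the control library, a ratio of 1.298 (1.23 to 1.37), so it was higher in the library labelled morphant. The sources used here do not say whether the morpholino blocks translation or splicing, and the knockdown was not checked by this level. Levels are given as RPKM, reads scaled to gene length and to the library's total, as the authors deposited them. Ratios are reads scaled to the library total (CPM), morphant over control library, with a 95% exact counting interval. With 1 library per group no difference has a replicate check and no test could be run. The intervals cover counting error only. A gene was tested against a size rule if its reads in both libraries summed to 50 or more. Of these 13575 genes, 35.2% had an interval that excluded 1, so such an interval does not set a gene apart. The median ratio of the 13575 genes was 1.02, and 54.3% of them were above equal levels.

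Among the hatching gland members the genes of the secreted proteases were higher in the morphant library of whole embryos, while xbp1 was nearly level. The ratios of the protease genes lay between 1.35 and 1.76. None of the 5 hatching gland IDs was 2-fold higher, as 1.62% of all tested genes were, and none was 2-fold lower, as 0.545% were. At a size rule of 1.5-fold, 2 of the 5 were higher, against 6.11% of all tested genes, and none was lower, against 3.24%. With TMM scaling, or with ratios divided by the median of all tested genes, he1.1 was no longer past 1.5-fold. At either setting 1 of the 5 was higher, against 717 (TMM) and 756 (median) of the 13575 tested genes. The median log2 ratio of the 5 IDs was 0.50, and that of all tested genes was 0.03.

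The gene he1.1 (ENSDARG00000023656) encodes a hatching enzyme, a metalloprotease of the astacin family. Its level was 147 RPKM in the morphant library, against 96.7 RPKM in the control library. The reads behind these levels numbered 1564 in the morphant and 1012 in the control library, a ratio of 1.52 (interval 1.40 to 1.65). In the morphant library its level exceeded that of 98.1% of all gene IDs. Of all tested genes 94.3% had a lower ratio.

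The neighbouring gene he1.2 (ENSDARG00000019122) encodes a second hatching enzyme. It had 71.8 RPKM and 707 reads in the morphant library, against 53.0 RPKM and 514 reads in the control library. The ratio was 1.35 (1.21 to 1.52). Both hatching enzyme genes were thus higher in the morphant library and kept their order, with he1.1 at 2.05 times the RPKM of he1.2 in the morphant and 1.83 times in the control library. Of the reads on the pair, he1.1 took 68.9% in the morphant library (95% exact binomial interval 66.9 to 70.8) and 66.3% in the control library (63.9 to 68.7). These intervals overlap.

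Another gene of that row, he1.3 (also called he2), had 11 reads in the morphant and 10 in the control library. Reads covered 4.67% of its length in the morphant and 6.05% in the control library, so its level is uncertain. The counts are of unique reads, and whether sequence shared with its neighbours lowers this count was not tested. In the RefSeq gene order (assembly GRCz12tu) he1.1, he1.2 and he1.3 stand between aox5 and bzw1a. The translation regulator gene bzw1a had 366 RPKM in the morphant and 324 RPKM in the control library, a ratio of 1.13 (1.095 to 1.17). The aldehyde oxidase gene aox5 had 24 reads in the morphant and 20 in the control library.

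The cysteine protease gene ctslb, a cathepsin L relative long used to stain the hatching gland under the name hgg1, was listed under 2 IDs. The ID whose best protein match is RefSeq ctslb (ENSDARG00000039173) had 55.4 RPKM and 753 reads in the morphant library, against 39.0 RPKM and 522 reads in the control library. Its ratio was 1.42 (1.27 to 1.59). The ID that Ensembl calls ctslb (ENSDARG00000074306) had 26.0 RPKM and 337 reads in the morphant library, against 14.8 RPKM and 189 reads in the control library. Its ratio was 1.76 (1.46 to 2.11), the highest of the hatching gland IDs. RefSeq calls the best protein match of this second ID wu:fa26c03. Both IDs were higher in the morphant library, whichever is taken as ctslb.

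**Figure D1:**
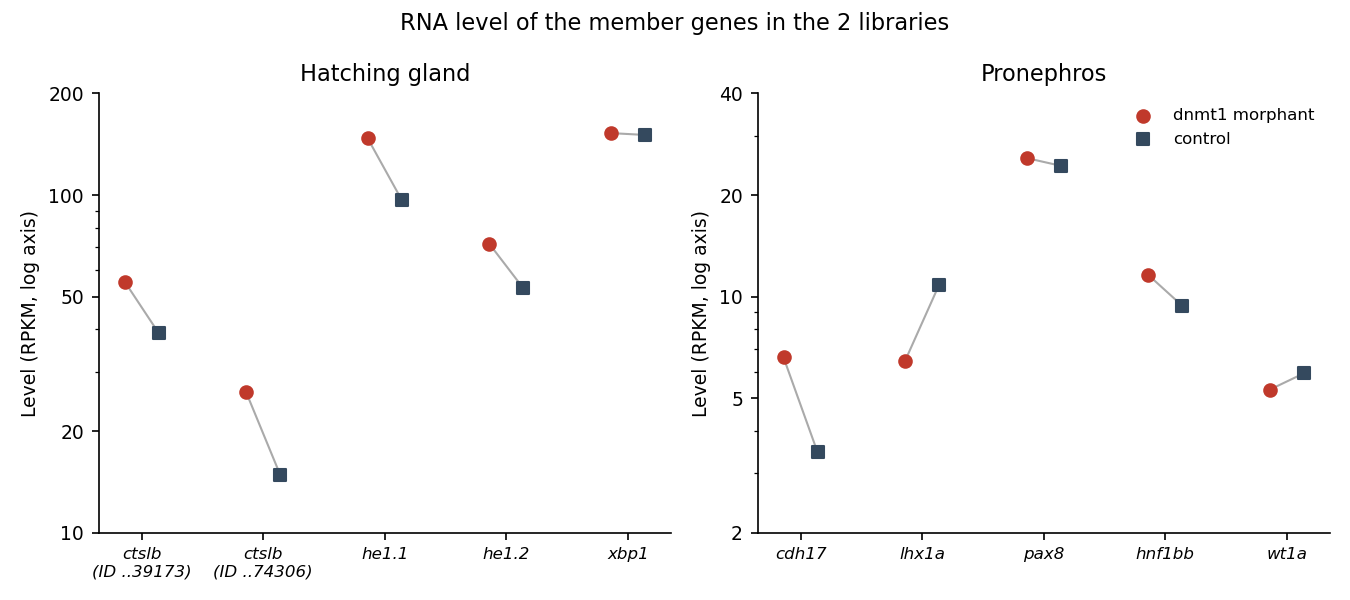
Level of each member in RPKM (log axis) in the dnmt1 morphant library (red circles) and the control library (dark squares), 1 library each, with a line joining the values of a gene ID. In the hatching gland panel the 4 protease IDs are higher in the morphant library and xbp1 is level at 153 and 151 RPKM, while in the pronephros panel cdh17 is higher and lhx1a lower in the morphant library.

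Reads covered much less of ctslb than of other genes. The authors' tables give the share of each gene's length that reads covered. For the RefSeq-matched ID it was 40.3% in the morphant and 41.2% in the control library. For the Ensembl-named ID it was 42.0% in the morphant and 41.6% in the control library. Among 1827 genes of 900 to 1700 bases with 150 to 1500 reads, the median coverage was 90.26% in the morphant and 90.01% in the control library. A share of 2.24% of those genes in the morphant and 2.46% in the control library was covered under 43%. By contrast he1.1 was covered to 84.6% in the morphant and 85.6% in the control library. The counts are of unique reads, and near-identical genes can lose or split reads in such counting, so the levels of ctslb and its relatives are uncertain. Whether this sets their coverage was not tested.

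The relatives of ctslb are described beside it. The authors' annotation gave 16 IDs the KEGG orthology of cathepsin L, and 14 of them had at least 50 reads. In the RefSeq gene order, 10 of the 14 belong to a run of neighbouring genes that starts at ctslb.4 and ends at zgc:174153. The run has 21 genes, 17 of them protein-coding, and holds both ctslb IDs. All 10 were higher in the morphant library, with ratios from 1.42 to 2.32 and a median of 1.56. At the 1.5-fold size rule 7 of the 10 were higher, against the 6.11% of all tested genes. The 10 are close relatives between which unique reads may be split, so they are not 10 separate observations. The Ensembl-named ctslb ID and si:dkey-269i1.4 share the best protein match wu:fa26c03. Their coverage was between 24.2% and 47.9% in the morphant library and between 24.4% and 50.5% in the control library. The family was looked up after the values of ctslb were seen.

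Among the 10 IDs of the run, si:dkey-239j18.3 had the highest ratio, 2.32 (1.72 to 3.16), with 151 reads in the morphant and 64 in the control library. It was the only one of the 10 past 2-fold, against 1.62% of all tested genes that were 2-fold higher. The most abundant was zgc:174153, with 83.6 RPKM in the morphant and 54.1 RPKM in the control library, a ratio of 1.55 (1.40 to 1.71). The 10 IDs together had 1.57 times as much RPKM in the morphant as in the control library.

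Genes were placed in the run by name. Of the cathepsin L IDs not so placed, the 4 with at least 50 reads had ratios below those of the 10. Below that minimum, ctsl.1 had 19 reads in the morphant and 11 in the control library, a ratio of 1.70 with a wide interval (0.769 to 3.96), and cts12 had no reads in either. The gene ctsla had 7788 reads in the morphant and 7191 in the control library (1.07, interval 1.03 to 1.101). The gene ctsll had 6806 reads in the morphant and 5689 in the control library (1.18, 1.14 to 1.22). The ratio of zgc:110239 was 0.961 (0.856 to 1.08). These 3 genes were covered over more than 90% of their length, between 92.6% and 99.4% in the control library. An ID with no symbol (ENSDARG00000090918) could not be placed by name, so whether it lies in the run is not known. It had a coverage of 26.1% in the control library and a ratio of 1.39 (1.15 to 1.68), near the lower end of the 10. Of the genes flanking the run, rpp30 and kif20bb on one side had ratios of 0.704 (0.551 to 0.897) and 0.880 (0.815 to 0.951). On the other side pank1b had a ratio of 1.199 (1.08 to 1.33) and slc16a12b one of 1.27 (0.831 to 1.96).

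**Figure D2:**
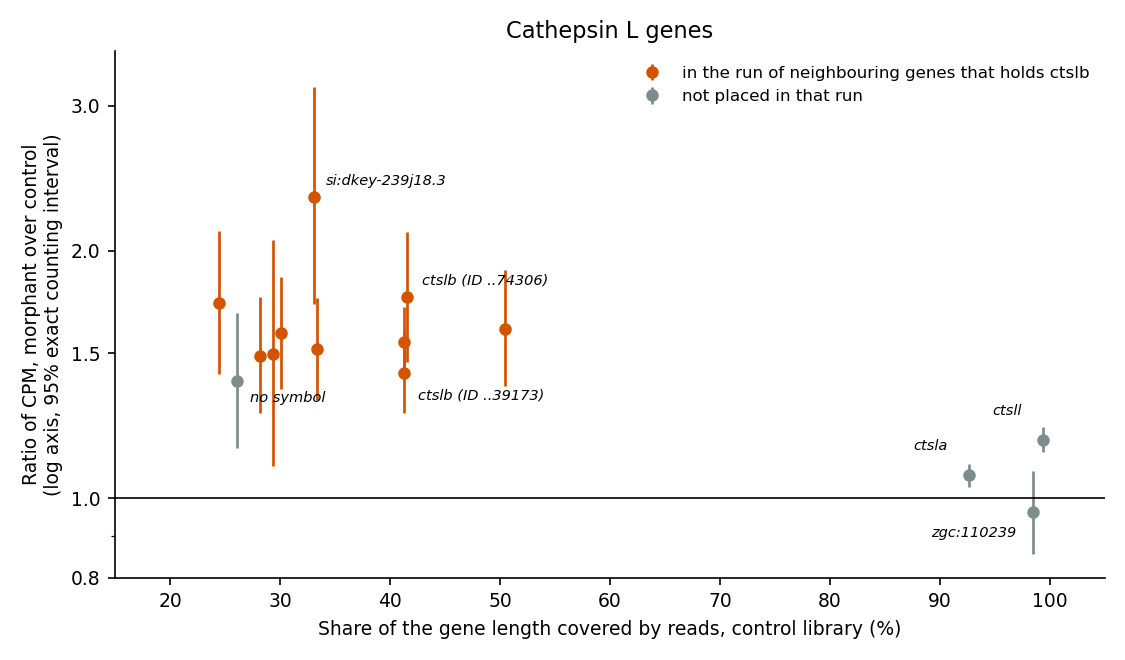
Ratio of CPM in the morphant over the control library (log axis, bars are 95% exact counting intervals) against the share of gene length covered by reads in the control library, for the 14 cathepsin L IDs with at least 50 reads. The 10 IDs of the run that holds ctslb (orange) lie between 1.42 and 2.32 at low coverage, and the 3 well covered genes ctsla, ctsll and zgc:110239 (grey, right) lie between 0.961 and 1.18.

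The transcription factor gene xbp1 (ENSDARG00000035622) acts in the unfolded protein response, which widens the capacity of the endoplasmic reticulum (ER), and marks the hatching gland among other secretory tissues. It had 153 RPKM and 3277 reads in the morphant library, against 151 RPKM and 3186 reads in the control library. The ratio of 1.01 (0.964 to 1.06) was below the median of all tested genes, and the upper bound of its interval lay below the lower bound for he1.2. These bounds cover counting error only, with 1 library per group. The level of xbp1 was 1.04 times that of he1.1 in the morphant library and 1.56 times in the control library.

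The listed genes of the ER secretory machinery showed no common direction. Of the 23 on that list 20 were found, all with enough reads, and hspa5, dnajb9b and sec61a1 were not found by symbol. Of the 20, 10 were above and 10 below equal levels, with a median log2 ratio of -0.00088. Over all tested genes 54.3% were above. An annotation term looked up later, endoplasmic reticulum unfolded protein response, had 9 of 11 tested genes above equal levels. Another, response to unfolded protein, had 11 of 21. None of the 20 was 2-fold higher, against 1.62% of all tested genes, and 1 was 2-fold lower, against 0.545%. That gene was dnajb9a, a co-chaperone gene of the ER and a known Xbp1 target in mammals, with 52 reads in the morphant and 123 in the control library (ratio 0.416, 0.295 to 0.580). The ER chaperone gene hsp90b1 had a ratio of 1.34 (1.23 to 1.47), the retrieval receptor gene kdelr2b 1.33 (1.21 to 1.46) and the disulfide isomerase gene pdia4 0.746 (0.637 to 0.874). Most of these genes are used in every cell, so they do not report on the gland alone.

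The listed regulators and polster genes showed no common direction. Of the 12 genes on the list of other hatching gland and polster genes all were found and 8 had enough reads. Of these 4 were above and 4 below equal levels, where 54.3% of all tested genes were above. The median log2 ratio was -0.01. None was past 2-fold in either direction, against 1.62% of all tested genes higher and 0.545% lower. The tetraspanin gene cd63 had 1133 reads in the morphant and 880 in the control library (1.27, 1.16 to 1.39). The regulator genes prdm1a and foxa3 were near level at 0.971 (0.900 to 1.05) and 1.02 (0.908 to 1.14). The gene klf17, a transcription factor needed for hatching gland formation, had 777 reads in the morphant and 951 in the control library (0.804, 0.731 to 0.885).

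The lowest ratio on that list was that of frzb, which encodes a secreted Wnt antagonist of the prechordal plate. It had 121 reads in the morphant and 189 in the control library (0.630, 0.498 to 0.796), past 1.5-fold. The anterior homeobox gene otx2b, which is also made across the forebrain and midbrain, had a ratio of 0.710 (0.644 to 0.782), and its relative otx2a 1.09 (0.948 to 1.25). Below the read minimum, the prechordal plate gene gsc had 18 reads in the morphant and 28 in the control library, otx1 had 8 in the morphant and 5 in the control library, and the secretory gene agr2 had 23 in the morphant and 10 in the control library. Counts that low leave wide intervals, for gsc from 0.330 to 1.19 around a ratio of 0.633.

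The pronephros members differed in direction. The tubule adhesion gene cdh17 was higher and the early regulator lhx1a lower in the morphant library, and pax8, hnf1bb and wt1a had intervals that held 1. The median log2 ratio of the 5 was 0.08. None was 2-fold higher or lower, against 1.62% and 0.545% of all tested genes. At the 1.5-fold rule 1 of 5 was higher and 1 of 5 lower, against 6.11% and 3.24% of all tested genes.

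**Figure D3:**
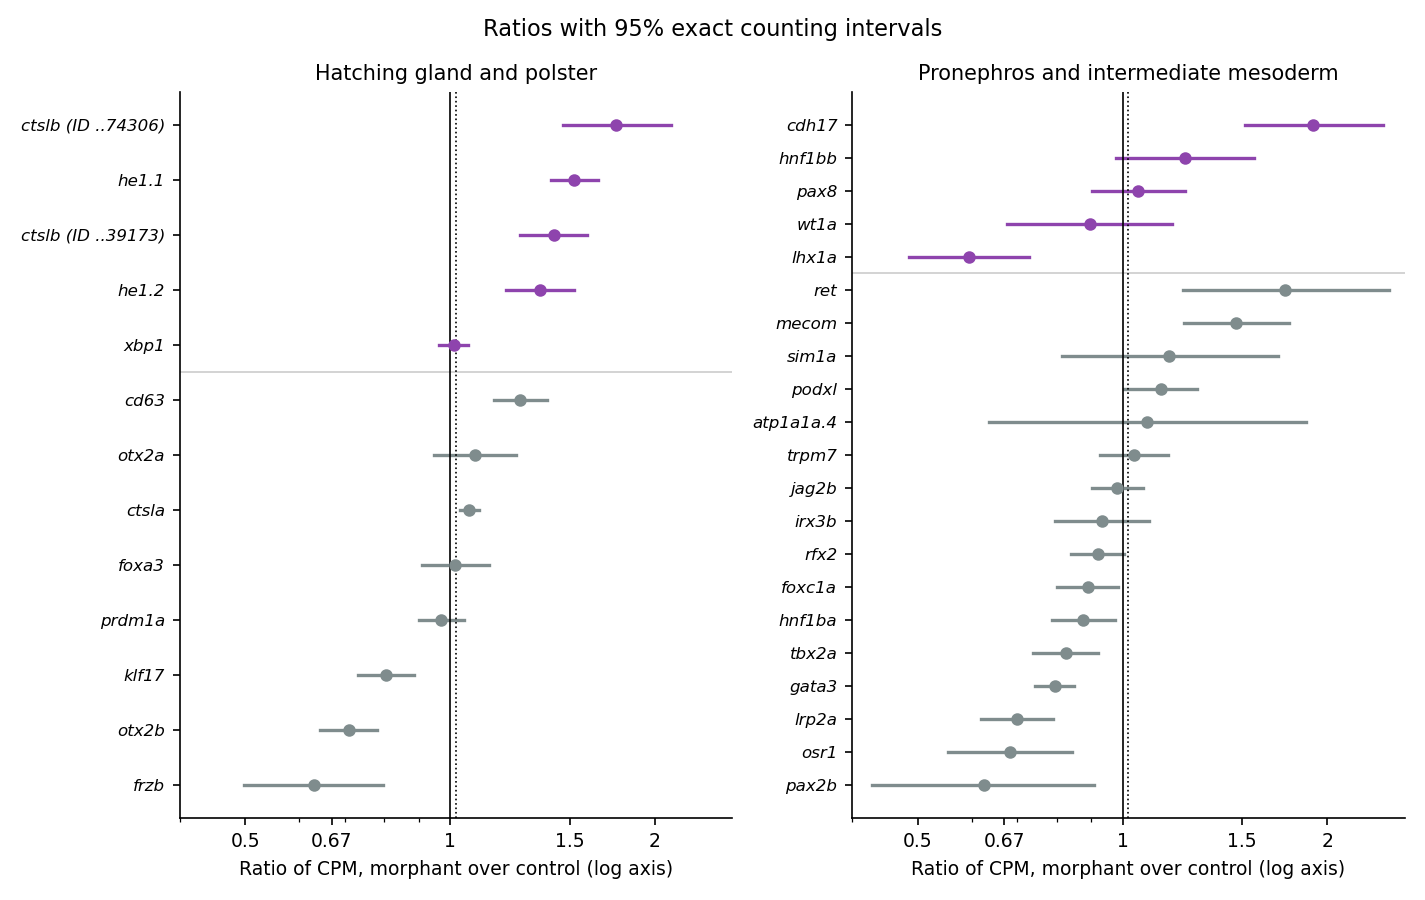
Ratios of CPM, morphant over control library (log axis), with 95% exact counting intervals as bars, for the members (purple) and the other listed genes with at least 50 reads (grey). The solid line marks equal levels and the dotted line the median of all tested genes, 1.02. The protease genes lie at 1.35 to 1.76, and cdh17 and lhx1a stand at 1.91 and 0.595 on opposite sides of the line.

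The cadherin gene cdh17 (ENSDARG00000005112) is made along the pronephric tubules and ducts. Its level was 6.61 RPKM in the morphant library, against 3.46 RPKM in the control library. It had 221 reads in the morphant and 114 in the control library, a ratio of 1.91 (1.52 to 2.41). Of all tested genes 97.9% had a lower ratio. Reads covered 85.4% of its length in the morphant and 69.4% in the control library.

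The LIM homeobox gene lhx1a (ENSDARG00000014018) is among the earliest genes of the kidney field, and is also made in axial mesoderm and in neurons of the hindbrain and spinal cord. It had 6.46 RPKM and 156 reads in the morphant library, against 10.9 RPKM and 258 reads in the control library. The ratio was 0.595 (0.485 to 0.729), lower than that of all but 1.62% of tested genes. The RPKM of lhx1a was 0.977 times that of cdh17 in the morphant library and 3.13 times in the control library. Of the reads on this pair, cdh17 took 58.6% in the morphant (53.5 to 63.6) and 30.6% in the control library (26.0 to 35.6). These intervals do not overlap, with 1 library behind each. The genes cdh17 and lhx1a had the highest and lowest ratios of the pronephros members, so these shares restate those ratios and are no separate result.

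The paired box gene pax8 (ENSDARG00000015879), which acts with the pax2 genes in early kidney and ear, was the most abundant of the 5. It had 25.8 RPKM and 334 reads in the morphant library, against 24.4 RPKM and 312 reads in the control library. The ratio was 1.05 (0.901 to 1.23). Its relative pax2b had 49 reads in the morphant and 77 in the control library (0.627, 0.429 to 0.908). The gene pax2a was not found by symbol and was not analysed here.

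The homeodomain gene hnf1bb (ENSDARG00000022295) acts in the patterning of tubule segments, in gut and in hindbrain. It had 11.6 RPKM and 168 reads in the morphant library, against 9.41 RPKM and 134 reads in the control library. The ratio was 1.23 (0.978 to 1.56). Its more abundant paralog hnf1ba had 658 reads in the morphant and 740 in the control library (0.875, 0.787 to 0.974). Of the reads on both paralogs hnf1bb took 20.3% in the morphant (17.6 to 23.2) and 15.3% in the control library (13.0 to 17.9). These intervals barely overlap, and such an overlap does not show that the shares are equal.

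The zinc finger gene wt1a (ENSDARG00000031420) marks the mesoderm that forms podocytes, the cells of the filter. It had 5.31 RPKM and 100 reads in the morphant library, against 5.93 RPKM and 110 reads in the control library. The ratio was 0.895 (0.676 to 1.18). Its paralog wt1b, below the read minimum, had 25 reads in the morphant and 17 in the control library. The interval of wt1a held 1, so its counts do not settle a direction.

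By RPKM the morphant order was pax8, hnf1bb, cdh17, lhx1a and wt1a, and the control order pax8, lhx1a, hnf1bb, wt1a and cdh17. Only pax8 kept its rank, at 2.22 times the next gene, hnf1bb, in the morphant library. Some ranks rest on close levels, as for cdh17 and lhx1a in the morphant library (6.61 and 6.46 RPKM). In the control library lhx1a and hnf1bb had 10.9 and 9.41 RPKM. Whether such pairs differ beyond counting error was not tested. The sum over the 5 genes was 55.7 RPKM in the morphant and 54.1 RPKM in the control library, a quotient of 1.03. For the 5 hatching gland IDs the quotient of the sums was 1.28. Without xbp1, for the 4 protease IDs alone, it was 1.48. Leaving out xbp1, the ID with the lowest ratio of the 5, must raise the quotient, so this value is no separate result. Both hatching gland quotients count ctslb under 2 IDs, between which unique reads may be split.

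**Figure D4:**
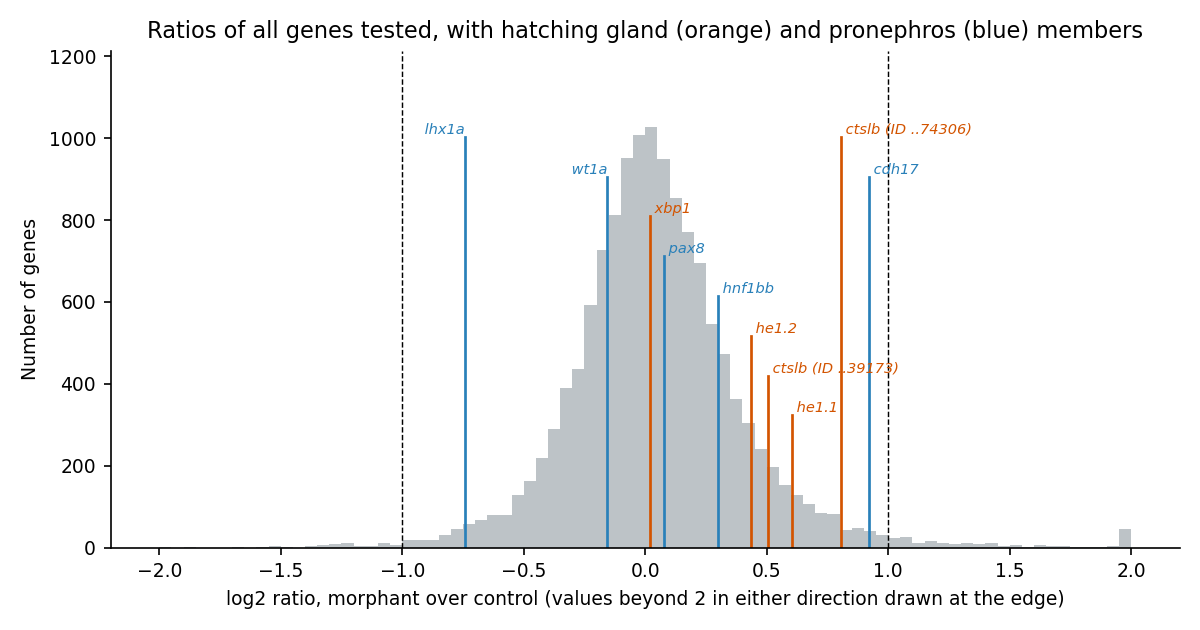
Distribution of the log2 ratio, morphant over control library, for the 13575 genes with at least 50 reads (grey bars, number of genes per bin), with the hatching gland members (orange) and pronephros members (blue) marked. Dashed lines mark 2-fold. All members lie inside 2-fold, with lhx1a at -0.74 and cdh17 at 0.92 the outermost.

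Other genes of the pronephros and intermediate mesoderm were mostly near or below equal levels. Of 30 on the list 24 were found and 16 had enough reads. Of these 6 were above and 10 below equal levels, and the median log2 ratio was -0.11. None was past 2-fold in either direction, against 1.62% of all tested genes higher and 0.545% lower. The receptor gene ret, made in the duct and in cranial neurons, had 95 reads in the morphant and 54 in the control library (1.73, 1.23 to 2.47). The segment regulator gene mecom had 316 reads in the morphant and 212 in the control library (1.47, 1.23 to 1.75).

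In the other direction, the intermediate mesoderm gene osr1 had 157 reads in the morphant and 226 in the control library (0.684, 0.554 to 0.842). The endocytic receptor gene lrp2a had 450 reads in the morphant and 633 in the control library (0.700, 0.619 to 0.791). The ratio was 0.795 (0.744 to 0.849) for gata3, which is also made in epidermis, and 0.824 (0.738 to 0.920) for tbx2a. It was 0.889 (0.801 to 0.986) for foxc1a. The Notch ligand gene jag2b (0.982), irx3b (0.933), rfx2 (0.919), trpm7 (1.04), sim1a (1.17), podxl (1.14) and the sodium pump gene atp1a1a.4 (1.09) had ratios between those groups.

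Several genes of the pronephros list stayed below the read minimum. The salt transporter gene slc12a3 had 1 read in the morphant and 2 in the control library. The chloride channel gene clcnk had no reads in either library, which allows up to 3 reads in each. The endocytic receptor gene cubn had 3 reads in each library. The filter gene nphs1 had 11 reads in the morphant and 14 in the control library. The homeobox gene emx1 had 4 reads in the morphant and 3 in the control library, and lhx1b had 17 in the morphant and 8 in the control library. None of these reached the read minimum.

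Genes of neighbouring and reference tissues were counted beside the members. Of 10 blood and vessel genes, which arise beside the pronephros, 8 were found and 7 tested. None of the 7 was past 2-fold, against 1.62% of all tested genes higher and 0.545% lower. Of the 7 genes 5 were above equal levels, and the median log2 ratio was 0.08. The erythroid regulator gene gata1a was the farthest of them, at 1.45 (1.16 to 1.82). The summed level of the 8 found was 91.7 RPKM in the morphant and 89.2 RPKM in the control library.

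Of 9 muscle genes 6 were found and 2 tested, and both of these were higher in the morphant library. The actin gene actc1b had a ratio of 1.38 (1.22 to 1.56) and the troponin gene tnnc2.2 one of 1.43 (1.16 to 1.76), in the range of the hatching gland proteases. The summed level of the 6 found was 64.7 RPKM in the morphant and 47.0 RPKM in the control library. The untested ones were below the read minimum and had no common direction, and among them myhz1.1 had no reads in either library. Of 8 reference genes none was past 2-fold, against 1.62% of all tested genes higher and 0.545% lower. Their ratios lay between 0.879 and 1.16. The part of muscle or blood content in the members' ratios was not tested.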

How the data were processed

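RNA-seq of whole embryos gave 1 dnmt1 morphant and 1 control library at the 10-somite stage. Each table lists raw counts (unique reads for every Ensembl gene) as the authors deposited them; RPKM, which the authors computed from the count, the listed gene length and the header total; and the fraction of gene length covered, per the file headers. TopHat2, BWA, HTSeq 0.6.1 and MACS2 are named in the submitters' processing notes, with no role stated. The sources used here give no genome build or strand setting. No promoter or protein sequence was used here.

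Dashes were read as 0, and rows with a shared ID (376) were added together. Symbols came from Ensembl names (4 member IDs), else the RefSeq protein match (3), else the Ensembl capital name in lower case (3: xbp1, cdh17, pax8). List genes were matched by symbol or RefSeq synonym, and 78 of 92 were found. Where IDs share a symbol, the ID with most reads entered a list. Neighbouring genes follow the RefSeq order of GRCz12tu.

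Log2 ratios are edgeR 4.0.16 (R 4.3.3) log2 CPM differences with total-read scaling and a prior count of 2. The size rule is 2-fold, and genes entered with at least 50 reads over both libraries. Ratios printed have no prior, and their 95% intervals are Clopper-Pearson intervals of the morphant share of a gene's reads. They cover counting error only, since each group had 1 library. Whether PCR copies were removed was not checked, and copies left in would make the intervals too narrow. The steps were run on a simulated pair of libraries with known folds and counting error only. That run checks the code and cannot show the spread between libraries. Tables and figures were made in Python 3.11.15 with pandas 2.3.3, matplotlib 3.10.9 and SciPy 1.17.1.

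The members, lists and size rules were chosen with earlier results of these data known. The text names the members, dnmt1, the genes found of the hatching gland and pronephros lists except 1 that is not reported here, and up to 4 genes of each other list by size of ratio. Cathepsin L relatives, flanking genes, annotation terms and the coverage threshold were chosen after values were seen.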

Additional observations from a re-analysis of the deposited data

How the results depend on the processing

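No paired analysis was possible because each group had 1 RNA library, and none could be left out. Over all genes, the counts at least 2-fold higher and lower were 220 and 74. They were 830 and 440 at 1.5-fold, 43 and 2 at 4-fold, 1076 and 923 with no read minimum, 86 and 22 with at least 200 reads, and 107 and 32 from RPKM with a pseudocount of 1. TMM scaling and a prior count of 0.5 kept both counts within 1.5 times. The 1.5-fold rule moved the members' counts from 0, to 2 higher IDs for the hatching gland (ctslb ENSDARG00000074306 and he1.1) and, for the pronephros, to 1 higher (cdh17) and 1 lower (lhx1a). At 1.5-fold with TMM or centring, settings added after seeing the data, the hatching gland count was 1 (he1.1 was lost). The pronephros counts stayed at 1 and 1, and the cathepsin run count was 6 in place of 7. Of the 13575 tested genes, 717 were higher and 501 lower with TMM, and 756 were higher and 479 lower with centring. The ER gene past 2-fold, dnajb9a, was not counted with at least 200 reads, from RPKM or at 4-fold. Every member's log2 ratio stayed inside its counting interval under TMM, centring on the median gene, a prior count of 0.5, RPKM and the single-row setting. The sign of xbp1, whose log2 ratio was 0.02, turned under TMM (-0.02) and centring (-0.01). Taking ctslb by its RefSeq match alone, chosen after seeing the data, gave a hatching gland median of 0.47. Reads of near-identical cathepsin genes, and the lack of a second library per group, limit what these values show.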

Other observations

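The gene ontology terms in the deposited annotation, chosen after the members' values were seen, cover wider sets of genes, and members are among them. Over all tested genes the median log2 ratio was 0.03 and 54.3% were above equal levels. The term hatching had 5 genes with enough reads and a median log2 ratio of 0.34. The members he1.1 and he1.2 were above equal levels, as were cd63 and the mitochondrial protein gene letmd1 (56 reads in the morphant and 46 in the control library), and klf17 was below. The term hatching gland development had 3 such genes and a median of 0.02.

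The term pronephros development had 34 such genes and a median of -0.03, with 14 above and 20 below equal levels. Kidney development had 37 genes and a median of -0.02, with 16 above and 21 below. Pronephric nephron tubule development had 6 genes and a median of 0.19, with 5 above, and pronephric duct development 3 genes and a median of 0.05, with 2 above.

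Within pronephros development, 3 of 34 genes were at least 1.5-fold higher in the morphant library, against 6.11% of all tested genes, and 2 were at least 1.5-fold lower, against 3.24%. The higher ones were cdh17, the polarity gene crb2a (558 reads in the morphant and 324 in the control library, a ratio of 1.70) and the growth factor gene igf2b (203 reads in the morphant and 129 in the control library, a ratio of 1.55). The lower ones were the homeobox gene irx4b, with 20 reads in the morphant and 50 in the control library, and the stress-responsive gene ndrg1a, with 89 reads in the morphant and 161 in the control library (0.544). Of these irx4b was past 2-fold, 1 of the 34 genes, against 0.545% of all tested genes that were 2-fold lower.

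The term endoplasmic reticulum unfolded protein response had 11 genes and a median of 0.14, with 9 above equal levels and none past 1.5-fold. The term response to unfolded protein had 21 genes and a median of 0.0006, with 11 above and 10 below. In each direction 1 of the 21 was past 1.5-fold. The shares past this size among all tested genes were 6.11% upward and 3.24% downward, so these counts set neither term apart.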
